A study of Mus musculus with 4 samples.

Results

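Oligodendrocyte precursor cells of the adult cortex were picked out of single-nucleus RNA sequencing libraries of female mice (4 in all) as 373 nuclei among 26350 that passed the filters (1.42%). A nucleus was taken as a precursor when it held at least 1 UMI (unique molecular identifier, 1 per captured RNA molecule) of Pdgfra and at least 4 of Pdgfra, Cspg4, Vcan and Olig1 together. It could hold at most 1 UMI of the neuronal genes Slc17a7, Gad1 and Gad2, at most 2 of the myelin genes Mog, Mag and Mobp, and none of the fibroblast genes Col1a1 and Dcn. All mice were wildtype C57BL/6JRj at about 12 weeks, and 2 libraries came from non-pregnant and 2 from pregnant mice taken at E13.5 of gestation. The labels number the 2 libraries of a group as replicates without stating that each is a separate animal, so the p-values measure the spread between these libraries.

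Oligodendrocyte precursors are the dividing glia that persist through adult grey and white matter and give rise to myelinating oligodendrocytes. They depend on platelet-derived growth factor, which they sense through the receptor Pdgfra, and carry the proteoglycans encoded by Cspg4 (NG2) and Vcan on their surface or in their matrix. Unlike other glia, they receive synapses from neurons. They also carry transmitter receptors and voltage-gated channels. On leaving the precursor state they pass through a stage marked by Gpr17 and Bcas1 before making myelin.

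The gate took 77 and 100 precursor nuclei from the non-pregnant libraries and 104 and 92 from the pregnant ones. Their UMIs summed to 474703 and 783920, and to 659104 and 574105. The median nucleus held 5991 and 7597 UMIs in non-pregnant and 6121.5 and 6265.5 in pregnant libraries, so non-pregnant replicate 2 was the deepest. A gate on UMIs can move with depth, and few nuclei lay at its edge: 3 members held exactly 4 precursor UMIs, and 8 nuclei with 3 were just outside. Another 62 nuclei reached the sum without a UMI of Pdgfra, 153 were stopped by neuronal UMIs, 7 by myelin UMIs and 1 by fibroblast UMIs. Those stopped by neuronal UMIs numbered 30 and 26 in non-pregnant and 52 and 45 in pregnant libraries, so the neuronal bound took out more nuclei in both pregnant libraries. Pairs of libraries shared 16 to 27 cell barcodes among all kept nuclei and 0 among precursors. Doublets were limited only by the gate's upper bounds.

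The nuclei carried the wider precursor programme. Of 29 identity genes found in the files and not used by the gate, 27 had their highest mean level in precursors. Precursors were compared with oligodendrocytes, astrocytes, microglia and all nuclei outside the precursor gate. The last set, called other nuclei here, includes those glia. Levels are UMIs of a gene scaled to a common total of the summed nuclei (CPM), which are not scaled to transcript length and so are compared within a gene. Lhfpl3, a tetraspan membrane protein gene, averaged 6537 CPM in precursors and 44.3 in oligodendrocytes. Cacng4, an auxiliary subunit of AMPA receptors, averaged 656.5 CPM in precursors and 19.6 in astrocytes, and Megf11 691 in precursors and 10.6 in microglia. The exceptions were Sox10, a transcription factor of the whole oligodendrocyte lineage, with 325 CPM in oligodendrocytes against 293 in precursors, and Luzp2, with 5174 CPM in astrocytes against 2511. These values describe nuclei chosen by correlated genes and were not tested.

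**Figure D1:**
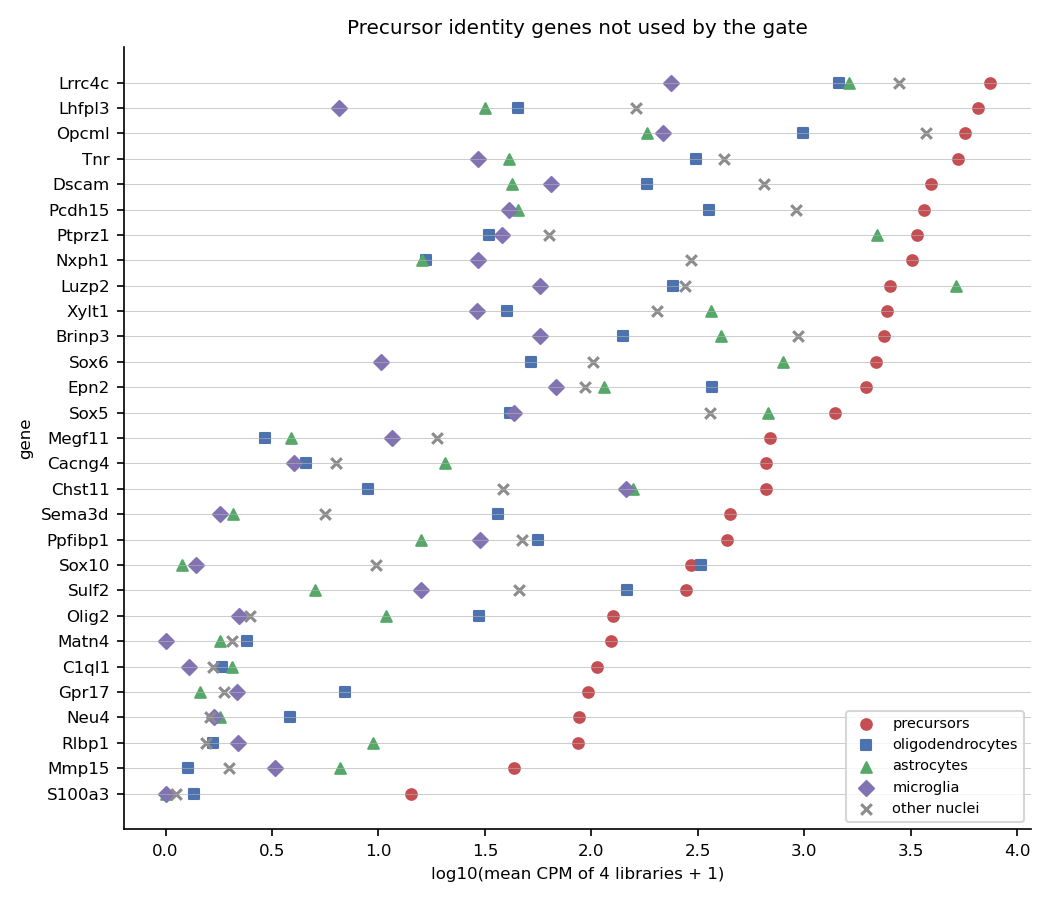
Mean level of each identity gene on a log10(CPM + 1) axis, as the mean of 4 libraries, in precursors and in 4 other sets of nuclei. The precursor symbol lies furthest right for 27 of 29 genes, and Sox10 and Luzp2 are the exceptions.

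Ranked by the fold over the highest of the 3 other glial types, with a mean of at least 50 CPM, the 15 leading genes held 2 gate genes, Pdgfra and Cspg4. The others were led by the kinase gene Stk32a at 530 CPM (1.57 in the highest other glia), the guidance cue gene Ntn1 at 270.1 (1.22) and the zinc finger factor gene Myt1 at 422.5 (2.11). The secreted synaptic organiser gene C1ql1 followed at 105 CPM, against 1.06 in the highest other glia. Nxph1, Matn4, Kcnh8, Tafa4, Susd5 and Lhfpl3 were among the rest, with 3 predicted or uncharacterised transcripts. In all nuclei outside the precursor gate together Nxph1 reached 293 CPM, so its level set precursors apart from other glia more than from that set.

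Stk32a stood at 562.5 and 512.8 CPM in non-pregnant and 523 and 521 CPM in pregnant precursors, a difference within the spread of the non-pregnant libraries. Ntn1 stood at 238 and 261.5 against 311 and 270.0 CPM (log2 fold change, taken as pregnant over non-pregnant, 0.18, SE 0.15, edgeR adjusted p = 0.92). C1ql1 stood at 82.2 and 99.5 against 126 and 113 CPM (0.34, SE 0.21, adjusted p = 0.866), and Susd5 at 92.7 and 95.7 against 164 and 160.2 CPM (0.74, SE 0.19, adjusted p = 0.15). For Ntn1, C1ql1 and Susd5, and also Tafa4, both pregnant libraries lay above both non-pregnant ones, and the differences did not pass. Among the same 15 genes the order was the reverse for Pdgfra, Myt1, Lhfpl3, Nxph1, Kcnh8, Gm56750 and Gm42948, and none of these passed either. Nxph1 stood at 3642 and 3240 against 2924 and 3017 CPM, and Kcnh8 at 480 and 459 against 437 and 336 CPM. Of all genes tested, 19.3% separated upwards and 14.6% downwards.

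Markers of other cell types differed widely in level in the precursor sums. The 10 inhibitory neuron markers, all detected, summed to 2420.5 and 2479.8 CPM in non-pregnant and 2219.7 and 2334 CPM in pregnant precursors, about as much as the 3 precursor markers (2324 and 2245 against 2268 and 2349.7 CPM). Most of that sum was Adarb2, at 2311 and 2412 against 2138 and 2221 CPM, while Gad1, which the gate limits, stood at 44.2 and 33.2 against 36.4 and 38.3 CPM. In all other nuclei the inhibitory list summed to 719 to 883 CPM. The 10 endothelial markers together stood at 0 and 2.55 CPM in non-pregnant and 3.03 and 1.74 in pregnant precursors, with Cldn5, Pecam1 and Cdh5 at 0. The 10 markers of mature oligodendrocytes summed to 107 and 89.3 against 135 and 155 CPM, and the 11 microglial markers to 59.0 and 54.9 against 102 and 105 CPM. The 13 excitatory markers, all detected, summed to 1319 and 1253 against 1543 and 1672 CPM, and the haemoglobin-led red cell list to 8.43 and 7.65 against 50.1 and 40.1 CPM. These 4 sums were higher in both pregnant libraries than in either non-pregnant one, as were the mitochondrial UMIs (0.00737% and 0.00434% against 0.0126% and 0.0176% of precursor UMIs). Excitatory markers and mitochondrial UMIs were lowest in non-pregnant replicate 2 and highest in pregnant replicate 2. The part of mitochondrial UMIs, microglial markers and the red cell list in the results below was not tested, and values with a gate free of neuronal and myelin UMIs are given with the calls. The 12 astrocyte markers (1079 and 949 against 1010.5 and 1195 CPM) overlapped between the groups.

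The first question was whether pregnancy went with more or fewer precursors. They made up 1.12% (95% Wilson interval 0.901 to 1.40) and 1.60% (1.31 to 1.94) of kept nuclei in non-pregnant libraries. In the pregnant libraries the shares were 1.59% (1.31 to 1.92) and 1.38% (1.12 to 1.68). The groups overlapped, with the lowest and the highest share both in non-pregnant libraries. The non-pregnant libraries averaged 1.36% ± 0.334 and the pregnant ones 1.48% ± 0.149 (SD, n = 2 each), a difference of 0.12 percentage points with an exact permutation p of 1.0 (two-sided). With 2 libraries against 2 this test cannot go below 0.333, and the intervals cover counting error only. The shares leave out the nuclei stopped by neuronal UMIs, which were more numerous in both pregnant libraries, and the overlap was not tested with them included.

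Against other glia the picture depended on the denominator. For each 100 oligodendrocytes there were 15.9 and 21.9 precursors in non-pregnant and 22.03 and 23.2 in pregnant libraries. For each 100 astrocytes there were 77.8 and 89.3 in non-pregnant and 55.3 and 49.5 in pregnant libraries. Both ratios separated the groups, in opposite directions, at the smallest p that the exact permutation test allows (0.333). The astrocyte gate took 99 and 112 nuclei in non-pregnant and 188 and 186 in pregnant libraries, so the second ratio moved with the astrocytes. As a share of nuclei without neuronal markers, precursors were 4.88% and 7.37% in non-pregnant and 5.71% and 4.69% in pregnant libraries, with means of 6.13% ± 1.76 and 5.203% ± 0.723 (SD, n = 2 each). Shares cannot tell a change in precursor number from a change in the number of other nuclei.

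**Figure D2:**
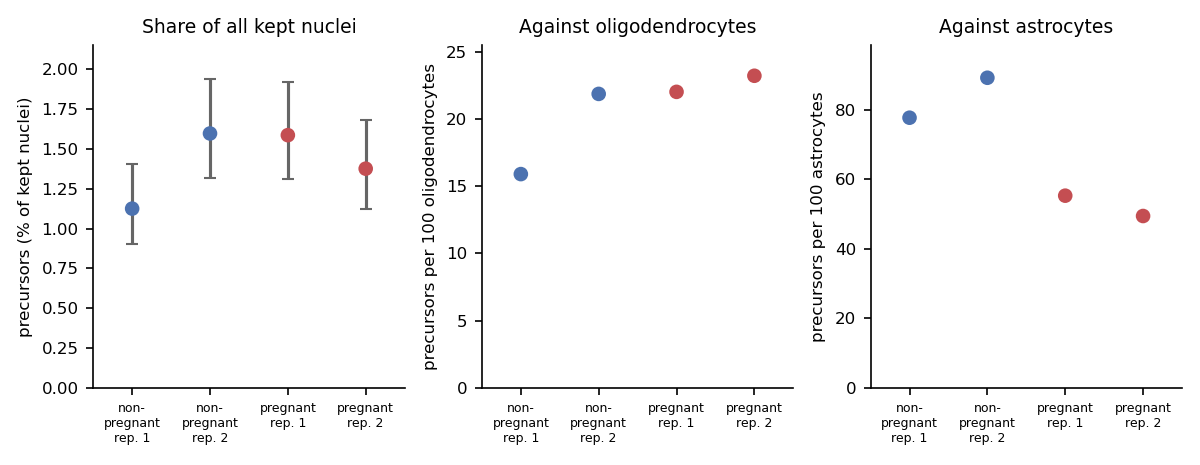
Precursors of each library as a percent of kept nuclei (points with 95% Wilson intervals), per 100 oligodendrocytes and per 100 astrocytes. Blue points are non-pregnant and red points pregnant libraries, and the share lies between 1.12% and 1.60% in all 4.

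The next question was whether genes of later stages were found more often in pregnant precursors. For shares of nuclei with a UMI, each nucleus was thinned to 2000 UMIs so that depth did not set the share, which left out 2 nuclei of pregnant replicate 2. A UMI of the commitment genes Gpr17, Bmp4, Enpp6 or Bcas1 was found in 58.4% (95% Wilson interval 47.3 to 68.8) and 70.0% (60.4 to 78.1) of non-pregnant precursors. In pregnant precursors the shares were 66.3% (56.8 to 74.7) and 68.9% (58.7 to 77.5). The means of 64.2% ± 8.17 and 67.6% ± 1.80 (SD, n = 2 each) differed by less than the non-pregnant spread (exact permutation p = 1.0). In astrocytes thinned the same way the share was 0 to 1.60%. Without thinning the precursor shares were 93.5%, 96.0%, 91.3% and 93.5%. A UMI of these genes therefore does not set committed nuclei apart, and the share is not a share of committed precursors.

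Bcas1, taken as a mark of cells that are starting to mature, made up most of the commitment signal. Its means were 59.3% ± 6.69 and 59.7% ± 1.19 of thinned nuclei (SD, n = 2 each). Gpr17, the receptor of the committed stage, was found in 18.2%, 18%, 16.3% and 20%. Enpp6, which marks newly forming oligodendrocytes, was found in 0 of 77 and 0 of 100 non-pregnant nuclei, which allows shares of up to 3.90% and 3%, and in 1 of 104 and 2 of 90 pregnant nuclei. That difference was not detectable at this depth. Gpr17 was uneven between nuclei: before thinning 1, 12, 3 and 4 nuclei of the 4 libraries held 3 or more of its UMIs.

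Dividing precursors were rare and lay in a few nuclei. Before thinning, 3 or more UMIs of 8 mitosis genes (Mki67, Top2a, Cenpf, Cenpe, Aurkb, Bub1b, Kif11 and Tpx2) were found in 2 nuclei of non-pregnant replicate 1, 1 of non-pregnant replicate 2, 2 of pregnant replicate 1 and 0 of pregnant replicate 2. The summed UMIs of these genes were 55, 50, 83 and 3. After thinning, 6.49% (2.81 to 14.3), 2% (0.55 to 7.001), 3.85% (1.51 to 9.47) and 0 of 90 nuclei, which allows up to 3.33%, held any such UMI. The pregnant libraries were the highest and the lowest in UMIs, and the group means of 4.25% ± 3.18 and 1.92% ± 2.72 did not separate (SD, n = 2 each, exact permutation p = 0.667). In astrocytes the share was 0 to 2.15%, so single UMIs of this set in non-pregnant replicate 2 lay at background.

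Gene by gene, pregnancy went with few differences in precursors. The summed UMIs of 7871 genes were compared by the quasi-likelihood test of edgeR, and 6 passed a Benjamini-Hochberg adjusted p of 0.05 (0.0762% of genes tested). Hsp90aa1, Ubb, Cmss1 and Camk1d rose (4 genes, 0.0508%), and Rhoq and the predicted gene Gm29521 fell (2 genes, 0.0254%). At an unadjusted p of 0.05, 500 genes (6.35%) were reached, 249 higher (3.16%) and 251 lower (3.19%). Simulated counts for these libraries had 200 of 7871 genes changed. In them the test found 37% of genes changed by 1 on the log2 scale and 94.5% of those changed by 2. Each set was drawn once, with the spread of a gene set by the trend over all genes. Genes that vary more than the trend were not covered.

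Hsp90aa1, which encodes the stress-inducible cytosolic chaperone HSP90 alpha, stood at 77.9 and 62.5 CPM in non-pregnant and 147 and 176 CPM in pregnant precursors. The log2 fold change was 1.19 (SE 0.21, edgeR adjusted p = 0.00338). Ubb, a polyubiquitin gene, stood at 35.8 and 28.1 against 71.3 and 95.8 CPM (1.37, SE 0.29, adjusted p = 0.0231). For both genes every pregnant library lay above every non-pregnant one, with pregnant replicate 2 the highest.

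Cmss1, which encodes a protein of the ribosomal small subunit pathway, stood at 626 and 460.5 CPM in non-pregnant and 806 and 880 CPM in pregnant precursors (log2 fold change 0.62, SE 0.12, adjusted p = 0.011). Camk1d, a calcium and calmodulin dependent kinase, stood at 362 and 311 against 493 and 557 CPM (0.62, SE 0.13, adjusted p = 0.0218). In each of the 4 genes that rose, pregnant replicate 2 was the highest library and non-pregnant replicate 2, the deepest, the lowest, the same order as that of the excitatory markers and the mitochondrial UMIs.

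Rhoq, which encodes the small GTPase TC10 of membrane trafficking, stood at 107 and 170 CPM in non-pregnant and 72.8 and 69.7 CPM in pregnant precursors (log2 fold change -1.04, SE 0.22, adjusted p = 0.0231). The pregnant libraries agreed closely, while the non-pregnant ones differed from each other by more than the gap between the lower of them and the pregnant libraries. Gm29521, named after its values were seen, stood at 54.8 and 40.8 against 12.1 and 6.97 CPM, from 26 and 32 against 8 and 4 UMIs (-2.27, SE 0.44, adjusted p = 0.011). No source used here says whether the counting used strand, so UMIs of a transcript overlapping Gm29521 cannot be told apart from its own.

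The calls rested on few libraries. All 6 kept their sign in each of 16 other settings in which they were tested. Without non-pregnant replicate 2, 5 genes passed, of which only Gm29521 was among the 6, and without pregnant replicate 2 none passed by edgeR (418 at an unadjusted p of 0.05). Without non-pregnant replicate 1 there were 18 calls and without pregnant replicate 1 there were 22, with all 6 among them. DESeq2 called 0 genes, with 70 at an unadjusted p of 0.05, and a stricter gate called only Hsp90aa1. With a gate that allowed no UMI of the neuronal genes Slc17a7, Gad1 and Gad2 or the myelin genes Mog, Mag and Mobp, 5 genes passed. Cmss1, Gm29521 and Hsp90aa1 were among them, while Camk1d, Rhoq and Ubb kept their sign and did not pass.

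**Figure D3:**
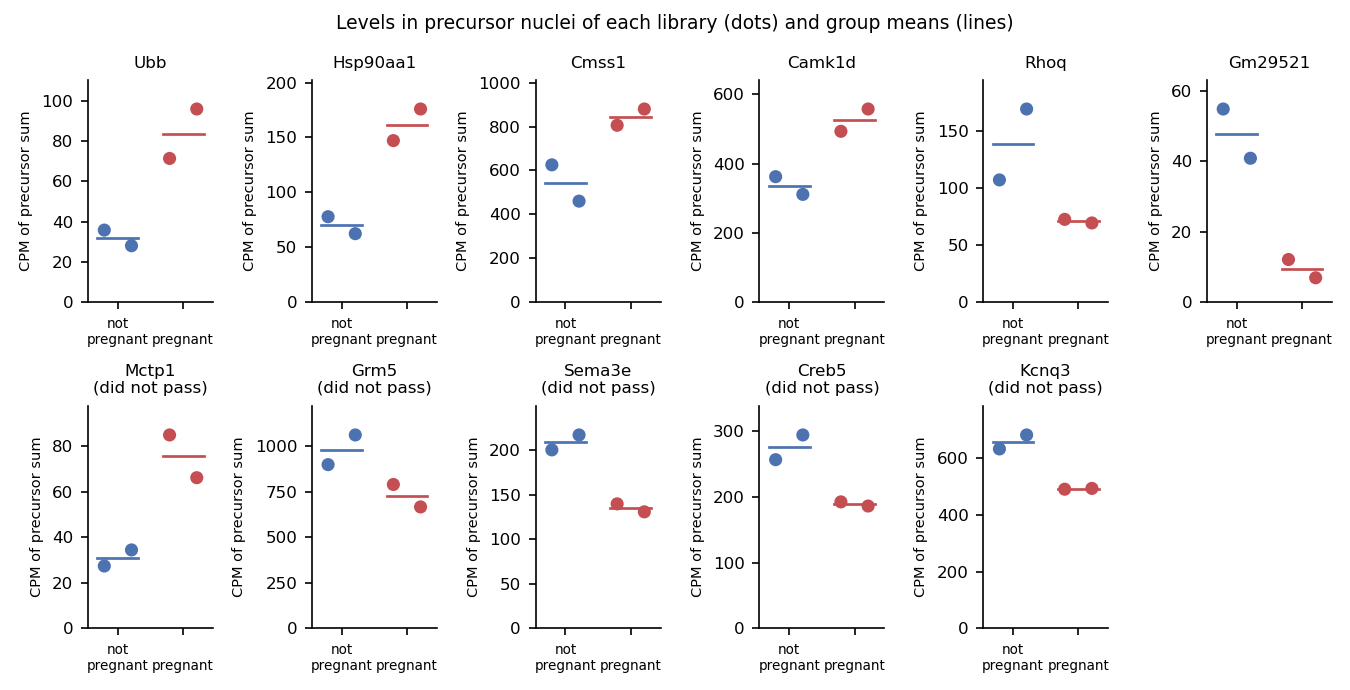
CPM in the precursor sum of each library (dots) with group means (lines), for the 6 genes that passed and the 5 next by the naming rule that did not. In each panel the non-pregnant and pregnant dots do not overlap, a separation that 33.9% of all tested genes showed.

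Next to the threshold lay genes of signalling and transport. Mctp1, a calcium-binding membrane protein gene, stood at 27.4 and 34.4 CPM in non-pregnant and 85.0 and 66.2 in pregnant precursors (log2 fold change 1.23, SE 0.30, edgeR adjusted p = 0.137). On the lower side Grm5, the metabotropic glutamate receptor mGluR5, stood at 900 and 1063 against 790 and 667 CPM (-0.46, SE 0.12, adjusted p = 0.15). Sema3e, a secreted semaphorin, stood at 200.1 and 217 against 140 and 131 CPM (-0.66, SE 0.17, adjusted p = 0.15), and Creb5, a transcription factor gene, at 257 and 295 against 193 and 186 CPM (-0.59, SE 0.15, adjusted p = 0.155). Kcnq3, a subunit of the M-type potassium channel, stood at 632 and 681 against 490 and 493 CPM (-0.45, SE 0.12, adjusted p = 0.155). None of these 5 passed. Mctp1 and Grm5 did so without TMM scaling of the libraries, Grm5 without pregnant replicate 1, Creb5 without non-pregnant replicate 1, and Sema3e with a gate that allowed no UMI of the neuronal and myelin genes.

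The genes that rose in precursors were higher in other pregnant nuclei too. Hsp90aa1, Ubb, Cmss1 and Camk1d stood higher in both pregnant libraries than in either non-pregnant one in oligodendrocytes, astrocytes and microglia. The same held over all nuclei outside the precursor gate, a set that includes these glia. In precursors 19.3% of all tested genes separated upwards, and the share of genes that did so in the other sets was not counted. How far the agreement between sets exceeds that background is therefore not known. Hsp90aa1 stood at 161 and 147 against 207 and 256 CPM in oligodendrocytes and at 74.8 and 51.9 against 98.3 and 124 CPM in astrocytes. Tests of whether the difference was larger in precursors, with the library as a block, did not pass for any of the 4. Hsp90aa1 gave a log2 difference of 0.68 over oligodendrocytes (SE 0.25, edgeR adjusted p = 0.187) and 0.36 over astrocytes (SE 0.30, adjusted p = 0.947). Ubb gave 0.84 over oligodendrocytes (SE 0.32, adjusted p = 0.236).

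Other chaperone genes, a list put together after these values were seen, did not pass. Hsp90ab1 stood at 147 and 98.2 against 155 and 207 CPM (log2 fold change 0.57, SE 0.19, edgeR adjusted p = 0.476), and Hspa8 at 90.6 and 34.4 against 75.9 and 108 CPM, with overlap. Hspa5, the chaperone of the endoplasmic reticulum, stood at 71.6 and 42.1 against 53.1 and 62.7 CPM. Within this list Hsp90aa1 and Ubb were the members that passed.

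**Figure D4:**
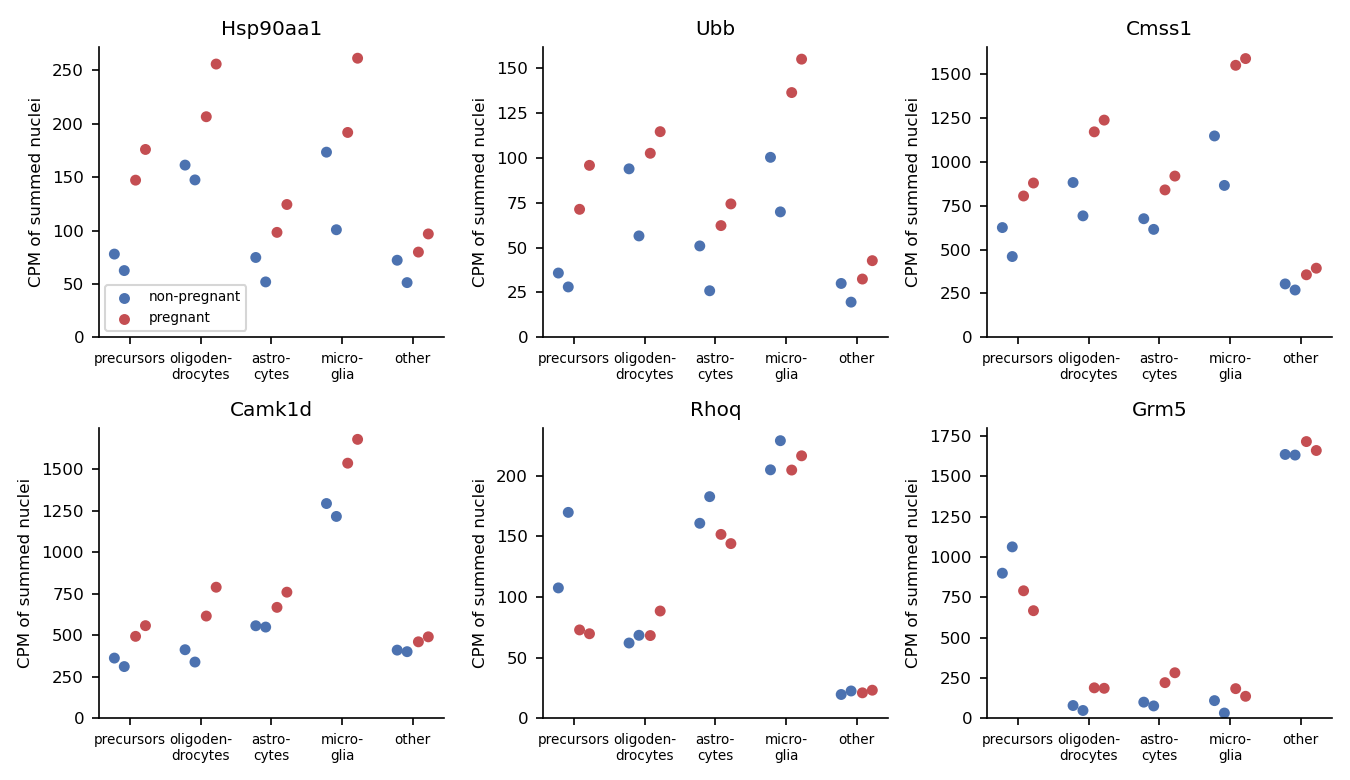
CPM per library of 6 genes in precursors, oligodendrocytes, astrocytes, microglia and other nuclei, with blue for non-pregnant and red for pregnant. Other nuclei are all those outside the precursor gate and include the other glia. Hsp90aa1, Ubb, Cmss1 and Camk1d are higher in the pregnant libraries in all 5 sets. Rhoq is lower in precursors and astrocytes, and Grm5 is lower in precursors and higher in the other sets.

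Rhoq moved differently in precursors and in oligodendrocytes, and Grm5 in precursors and in astrocytes. In oligodendrocytes Rhoq stood at 62.0 and 68.4 CPM in non-pregnant and 68.2 and 88.4 in pregnant libraries, and the difference in precursors was lower by 1.18 on the log2 scale (SE 0.27, edgeR adjusted p = 0.00142). With oligodendrocyte nuclei that held more than 10 UMIs of 6 neuronal genes left out, it was -1.22 (adjusted p = 0.00311). It missed the threshold without non-pregnant replicate 2 (-0.90, adjusted p = 0.417) and without pregnant replicate 2 (-0.98, adjusted p = 0.216), and adjusted p ran from 0.000303 to 0.417 over 8 settings. In astrocytes Rhoq was also lower in both pregnant libraries, at 161 and 183 against 152 and 144 CPM. The test against astrocytes did not pass (-0.76, SE 0.27, adjusted p = 0.332). Grm5 was lower in pregnant precursors and higher in pregnant astrocytes, with 100.2 and 76.8 against 221 and 282 CPM. The log2 difference was -1.97 (SE 0.21, adjusted p = 1.72e-08), and -1.68 with astrocytes holding neuronal UMIs left out (adjusted p = 4.14e-11), and from -2.25 to -1.65 over 8 settings (adjusted p at most 9.28e-07). Against oligodendrocytes it was -1.98 (SE 0.20, adjusted p = 2.45e-17) and, with such nuclei left out, -0.81 and no longer past the threshold (adjusted p = 0.0958). Grm5 was also higher in both pregnant libraries in oligodendrocytes (79.3 and 48.5 against 189 and 186 CPM) and microglia (110 and 32.7 against 184 and 136 CPM). So were the summed excitatory markers in astrocytes (3128 and 2831 against 3586 and 3609 CPM). The part of neuronal RNA in the nuclei that stayed was not tested.

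Over all genes, 201 of 11358 differed between precursors and oligodendrocytes in their pregnancy difference (1.77%), 21 with the higher difference in precursors (0.185%) and 180 with the lower (1.58%). Oligodendrocytes with more than 10 UMIs of the 6 neuronal genes were then left out, 6 and 5 nuclei in non-pregnant and 13 and 15 in pregnant libraries. Nuclei with up to 10 such UMIs stayed. That gave 58 of 11090 (0.523%), 26 higher (0.234%) and 32 lower (0.289%), with 41 of the 58 among the 201. Against astrocytes 42 of 9854 genes passed (0.426%), 2 higher (0.0203%) and 40 lower (0.406%) in precursors. Leaving out 4 and 4 non-pregnant and 8 and 15 pregnant astrocytes above the same limit gave 19 of 9800 (0.194%), 3 higher (0.0306%) and 16 lower (0.163%), with 9 of the 19 among the 42. Oligodendrocytes and astrocytes with that many neuronal UMIs were more numerous in both pregnant libraries. Among precursors they numbered 4 and 5 in non-pregnant and 5 and 10 in pregnant libraries, so the groups met at 5. The count of lower genes against oligodendrocytes was 180 with them and 32 without.

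On the higher side Sox6, a transcription factor that holds precursors undifferentiated, stood at 2237 and 2185 CPM in non-pregnant and 2223 and 2062 in pregnant precursors. In oligodendrocytes Sox6 stood at 82.5 and 71.1 against 27.8 and 22.7 CPM, so the log2 difference of 1.59 (SE 0.23, edgeR adjusted p = 3.16e-09) lay in the oligodendrocytes. The 3 precursor markers also summed to more in non-pregnant oligodendrocytes, at 32.9 and 34.9 against 7.07 and 9.89 CPM, and their part in the Sox6 difference was not tested. Sema5a, a membrane semaphorin, stood at 318 and 364 against 448 and 420 CPM in precursors and at 126 and 117 against 101 and 55.8 CPM in oligodendrocytes (1.03, SE 0.21, adjusted p = 0.000159). Against astrocytes Shisa9, an AMPA receptor regulator, stood at 221 and 214 against 340 and 286 CPM in precursors and at 207 and 195 against 152 and 131 CPM in astrocytes (1.01, SE 0.21, adjusted p = 0.00387). Sema5a and Shisa9 thus lay higher in both pregnant libraries in precursors and lower in both in the other type. Sema5a missed the threshold without pregnant replicate 2 (0.69, adjusted p = 0.349), and Shisa9 without any library but non-pregnant replicate 1 (1.01 to 1.05, adjusted p = 0.0522 to 0.0853).

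None of the 19 gene lists held a member that passed by edgeR, and DESeq2 called none either. They are described by their medians on the log2 scale, beside a median of -0.0042 over all 7871 genes. Members that separated the groups are counted beside 19.3% of all genes separated upwards and 14.6% downwards. Those at an unadjusted p of 0.05 by edgeR are counted beside 6.35% of all genes.

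Identity and lineage genes had medians near that of all genes. The 28 tested identity genes had a median of -0.07, with 5 separated upwards and 8 downwards. Of 6 with an unadjusted p under 0.05, beside 6.35% of all genes, Rlbp1 was higher and Chst11, Lhfpl3, Nxph1, Ppfibp1 and Xylt1 were lower (1 and 5), names given after their values were seen. Lhfpl3 stood at 7219 and 7207 CPM in non-pregnant and 5934 and 5788 in pregnant precursors (log2 fold change -0.33, SE 0.11, edgeR adjusted p = 0.444), the clearest of these. Among 26 lineage transcription factors (median 0.04, 3 at an unadjusted p of 0.05), Sox6 and Sox5 had log2 fold changes of -0.07 and 0.02. Chosen after their values were seen, Sox8 stood at 131 and 135 against 168 and 205.5 CPM, and Hes5, a target of Notch, at 12.6 and 15.3 against 37.9 and 27.9 CPM, with adjusted p of 0.645 and 0.618. Tcf7l2, a Wnt effector of early differentiation, stood at 175 and 130.1 against 126 and 74.9 CPM (adjusted p = 0.574).

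Genes of differentiation, growth and division showed no common direction. The 22 commitment genes had a median of 0.02 (1 at an unadjusted p of 0.05), and Bcas1 stood at 480.3 and 479.6 against 523 and 547 CPM. The 9 tested myelin genes had a median of 0.15, 8 of them above 0, and Mbp stood at 25.3 and 28.1 against 42.5 and 47.0 CPM, beside the higher sum of mature oligodendrocyte markers given above. The 9 tested cell cycle genes had a median of -0.09, with Top2a at 37.9, 28.1, 50.1 and 0 CPM across the 4 libraries. The 41 growth factor receptor and pathway genes had a median of -0.02, with Erbb4, a neuregulin receptor, at 2724 and 2929 against 2814 and 2916 CPM. The 24 genes of Notch, Wnt and other brakes on differentiation had a median of 0.01, and Maml2, a Notch coactivator, overlapped between the groups.

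Glutamate receptors had the lowest median among lists of more than 20 tested genes, -0.14 over 24 genes, with 8 above 0. Of these 24, 10 separated downwards and 3 upwards, beside 14.6% and 19.3% of all genes. An unadjusted p under 0.05 was found for 9, 6 lower and 3 higher, beside 3.19% and 3.16% of all genes. Gria2, the AMPA receptor subunit that limits calcium entry, stood at 1618 and 1494 CPM in non-pregnant and 1135 and 1435 in pregnant precursors (log2 fold change -0.31, SE 0.11, edgeR adjusted p = 0.589). Grik2, a kainate receptor, overlapped between the groups.

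Within this family the members did not move together. The following were chosen after their values were seen. Grin3a, an NMDA receptor subunit, stood at 752 and 665 against 629.6 and 502 CPM (log2 fold change -0.34, SE 0.12, edgeR adjusted p = 0.574). Grin2b, another NMDA receptor subunit, stood at 31.6 and 21.7 against 47.0 and 80.1 CPM (1.25, SE 0.33, adjusted p = 0.174), and Gria1 at 88.5 and 38.3 against 72.8 and 127 CPM. Grin2b and Gria1 were highest in pregnant replicate 2 and lowest in non-pregnant replicate 2, as were the summed excitatory markers.

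**Figure D5:**
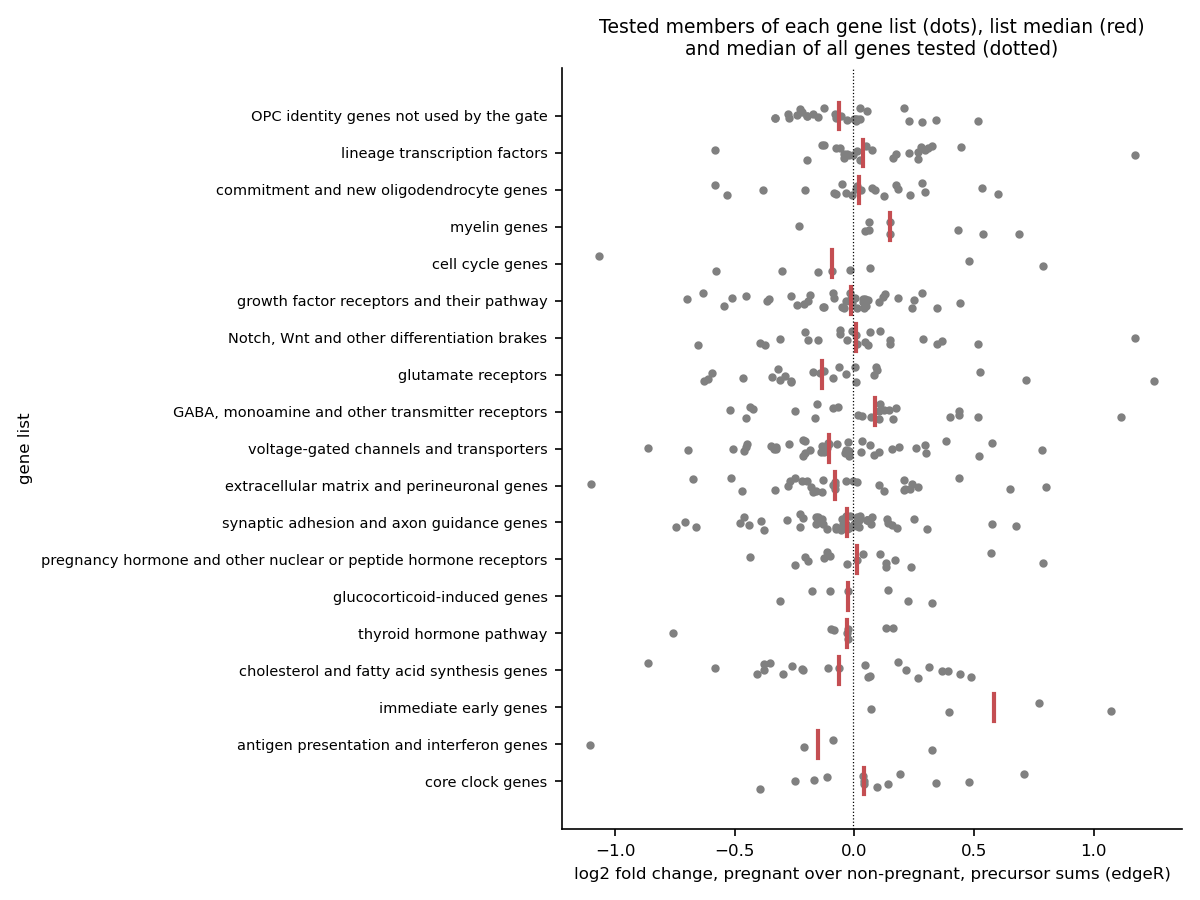
Log2 fold change in precursors of every tested member (grey dots) of the 19 gene lists, with each list's median (red bar) and the median of all tested genes (dotted line). List medians lie between -0.15 and 0.15 except for the 4 tested immediate early genes.

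Other receptors, channels and surface genes followed the same pattern of small shifts. The 24 GABA, monoamine and related receptors had a median of 0.09, with Gabrb1 and Gabrg3 overlapping between the groups. The 43 voltage-gated channels and transporters had a median of -0.11, with 10 separated downwards and 7 upwards and 5 at an unadjusted p of 0.05. Kcnd2, an A-type potassium channel, stood at 4493 and 4752 against 4474 and 4111 CPM. Kcnq5, a partner of Kcnq3 chosen after its values were seen, stood at 600.4 and 514 against 460 and 364 CPM (log2 fold change -0.45, SE 0.13, edgeR adjusted p = 0.283).

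The 33 matrix genes had a median of -0.08 (3 at an unadjusted p of 0.05), with Tnr, the tenascin-R of perineuronal nets, at 5115 and 5549 against 5327 and 4983 CPM. Ptprz1, a receptor phosphatase and proteoglycan, stood at 3562 and 3559 against 3080 and 3261 CPM (log2 fold change -0.20, SE 0.11, edgeR adjusted p = 0.808). The 53 synaptic adhesion and guidance genes had a median of -0.03 (5 at an unadjusted p of 0.05), and Lsamp overlapped between the groups.

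Receptors for hormones of pregnancy were barely detected in precursors. Prlr, the prolactin receptor, gave 0, 0, 1 and 0 UMIs in the 4 libraries, and Oxtr, the oxytocin receptor, 1, 0, 1 and 0. Esr1 gave 3, 3, 3 and 1 UMIs and Pgr, the progesterone receptor, 2, 7, 8 and 7. All 4 were too low to test, and so a difference was not detectable at this depth. Thra and Thrb, the thyroid hormone receptors that drive precursor differentiation, were measured, with Thra at 65.3 and 63.8 against 66.8 and 78.4 CPM and Thrb at 327 and 304 against 323 and 303 CPM. Nr3c1, the glucocorticoid receptor, stood at 242 and 217 against 237 and 195 CPM (log2 fold change -0.10, SE 0.16, edgeR adjusted p = 0.971).

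Hormone, lipid and clock genes had medians near that of all genes. Of 45 hormone receptor genes in the files 17 were tested, and they had a median of 0.01 and the 7 tested of 26 glucocorticoid-induced genes had -0.03, with 0 of either at an unadjusted p of 0.05. Sgk1, a glucocorticoid-induced kinase, stood at 236 and 182 against 202 and 188 CPM. The 8 thyroid pathway genes had a median of -0.03 (1 at an unadjusted p of 0.05) and the 23 cholesterol and fatty acid synthesis genes -0.06 (0), with Acaca at 244 and 207 against 202 and 178 CPM. The 13 core clock genes had a median of 0.04 (0), the 4 immediate early genes 0.58 (0) and the 4 antigen presentation and interferon genes -0.15 (1). Jun and Nr4a1 are immediate early genes, and Nr4a1 stood at 14.7 and 10.2 against 16.7 and 26.1 CPM.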

How the data were processed

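The deposited matrices hold whole-number UMI counts per gene and nucleus, made by the authors with Cell Ranger 10.0.0 on GRCm39, per the submitters' processing notes. Nuclei with at least 500 genes and at most 5% mitochondrial UMIs were kept, 26350 of 26816 barcodes with 423916014 UMIs. No doublet caller was run and free RNA was not subtracted. Oligodendrocytes, astrocytes and microglia were gated on their own markers. Counts were summed per library and tested with edgeR 4.0.16 (robust quasi-likelihood, TMM, filterByExpr with a minimum count of 10, Benjamini-Hochberg at 0.05), and with DESeq2 1.42.0 as an alternative. SE is the log2 fold change divided by the root of F. Differences between types used the library as a block. Shares were compared with exact permutation tests. In simulated data the test made 2 and 9 false calls among 7871 genes at log2 changes of 1 and 2.

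Members and lists were chosen with earlier results of these data known. Genes named are the called genes that are not predicted, or the 5 smallest p in a direction with fewer than 5 calls, the 3 highest members of each list, the hormone receptors, and the 3 smallest p in each direction of each interaction. Some genes that the rule takes are given only by counts or are not reported here. Alternatives covered scaling, filters, gates, thinning, each library left out and a replicate block.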

Additional observations from a re-analysis of the deposited data

Results flagged for a closer look

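Each gene here had a pregnancy difference in precursors that differed from that in another glial type by edgeR's interaction test, given as precursors minus the other type on the log2 scale. Against oligodendrocytes the values were 1.59 for Sox6, 1.03 for Sema5a, -1.18 for Rhoq, -1.98 for Grm5, -5.91 for Tshz2, -2.70 for Tafa1 and -3.49 for Grm8. Vcan gave 2.32, with 1576 and 1489 against 1543 and 1609 CPM in precursors, which the gate chose by Vcan, and 29.1 and 30.0 against 4.55 and 8.14 CPM in oligodendrocytes. With oligodendrocytes that held more than 10 neuronal UMIs left out, Tshz2 was -3.07 (adjusted p = 2.21e-07), Grm8 -1.58 (adjusted p = 0.0121) and Tafa1 -0.98 (adjusted p = 0.0958).

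Tshz2, a zinc finger factor gene, stood at 200.1 and 279 CPM in non-pregnant and 258 and 190 in pregnant precursors, and at 2.70 and 1.32 against 114 and 120.0 CPM in oligodendrocytes. In all nuclei outside the precursor gate, which include the other glia and are mostly neurons, it stood at 68.3 and 47.1 against 369.5 and 371 CPM. Astrocytes stood at 3.18 and 4.15 against 63.1 and 43.8 CPM, and microglia at 5.22 and 2.72 against 116 and 94.8 CPM. Precursors were thus the set in which Tshz2 overlapped between the groups, among the 5 sets compared. Excitatory markers were higher in both pregnant libraries in oligodendrocytes (1449 and 902 against 2523 and 2417 CPM) and microglia (1918 and 958 against 2898 and 2633 CPM). Beyond leaving out nuclei with more than 10 neuronal UMIs, the part of neuronal RNA in the Tshz2 values was not tested.

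Against astrocytes the values were 1.01 for Shisa9, 3.23 for Ccdc136, -1.87 for Ralyl, -3.92 for Tshz2 and -1.97 for Grm5. Ccdc136 rested on 2 and 0 against 10 and 9 UMIs in precursors, and missed the threshold without any library but non-pregnant replicate 1 (1.88 to 3.35) and with the stricter gate (2.93). With astrocytes that held more than 10 neuronal UMIs left out, Ralyl was -1.70 and Tshz2 -2.50, both past the threshold.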

How the results depend on the processing

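The 6 calls in precursors became 11 without TMM scaling, 0 by DESeq2, 1 with a stricter gate, 3 without the tenth of nuclei with most UMIs and 2 with nuclei thinned to 2000 UMIs, and ranged from 0 to 22 when 1 library was left out. The cause was not tested. With the replicate number as a block there were 8 calls, including all 6. Same-numbered libraries did not deviate together (correlation -0.01 over 7871 genes), which gave no sign of pairing. With 2 libraries in each group this check cannot exclude pairing. Of values of the 6 called genes under other settings, 62 kept direction and side of the threshold and 33 kept direction only. Of values of uncalled genes, 1495 stayed and 24 passed the threshold.

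The count of genes differing from oligodendrocytes was 58 with neuronal UMIs left out, an alternative chosen after seeing the data, and 97 to 247 with 1 library left out. Against astrocytes it was 19 and 32 to 77. The difference in precursor share was -0.924 percentage points among nuclei without neuronal markers and -0.116 to 0.356 with 1 library left out. Differences in commitment share ranged from -2.38 to 9.18 and in cell cycle share from -4.57 to -0.0769 percentage points with 1 library left out. With 77 to 104 precursors a library, genes of few UMIs and rare states were beyond reach.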

Other observations

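Some genes outside the lists separated the groups in precursors without passing, and were singled out after their values were seen. Nnat, an imprinted gene of the endoplasmic reticulum membrane, stood at 217 and 296 CPM in non-pregnant and 366 and 427 in pregnant precursors (log2 fold change 0.56, SE 0.14, edgeR adjusted p = 0.15). Hbb-bs, a haemoglobin beta gene, gave 3, 0, 20 and 11 UMIs across the 4 libraries. It was also higher in both pregnant libraries in oligodendrocytes, astrocytes, microglia and all nuclei outside the precursor gate. Without TMM scaling Nnat and Hbb-bs passed.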
